A study of Mus musculus with 8 samples.

Results

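Interferon-stimulated genes were followed in blood stem and progenitor cells that had shared a marrow with leukemic cells. The set comprised 43 listed genes of the antiviral programme, each read from the brightest of its probe sets (by mean over the 8 arrays) among those annotated to that gene alone. Of these, 41 of 43 were measured among 18193 genes on the array. The single probe set of Isg15, the ubiquitin-like modifier of the response, is shared with another gene, and Ifi44 is not analysed here.

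Messenger RNA was measured on Affymetrix mouse expression arrays in 4 groups of 2 arrays. Every mouse was a chimera in which a CD45.1+ host had received CD45.1+ marrow together with an equal number of CD45.2+ marrow cells. In the leukemic mice the CD45.2+ cells carried both a BCR-ABL and an SCL-tTA transgene, and control mice were made without BCR-ABL. SCL-tTA is a tetracycline-repressible driver active in stem and progenitor cells, and BCR-ABL is an always-active kinase that causes chronic myeloid leukemia. Tetracycline water was withdrawn and CD45.1+ cells, which did not carry BCR-ABL, were sorted 4 weeks later; the host's own surviving CD45.1+ cells would fall in the same gate. KSL denotes lineage-negative cells positive for Kit and Sca-1, a gate of stem and multipotent progenitor cells. HSC denotes its CD150+ CD48- fraction, enriched for long-term stem cells, so that the HSC gate lies inside the KSL gate. Each cell type was taken from normal and from leukemic mice, which gives the 4 groups. The labels do not say whether replicate arrays came from separate animals, so p-values measure the spread between these arrays, which may be technical.

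Values are log2 signals, array medians lay between 5.74 and 5.86, and the deposited table has a floor of 3.32 that no interferon-stimulated gene touched. Replicate arrays correlated across genes with r = 0.957 to 0.994, and the median standard deviation between replicates over the 41 genes was 0.302 (normal) and 0.27 (leukemic) in HSC and 0.144 (normal) and 0.089 (leukemic) in KSL. The markers of the gates followed the labels. Slamf1, which encodes CD150, read between 8.23 and 9.36 on the HSC arrays and between 5.27 and 7.06 on the KSL arrays, and Cd48 read between 6.19 and 8.12 against 10.17 to 10.44. Replicate 1 of both normal groups had low Xist (5.79 in HSC and 3.67 in KSL against 11.63 to 11.99 on the other 6 arrays), the pattern of male cells, so sex is not balanced between normal and leukemic groups. These arrays also had the higher summed linear signal of 10 erythroid genes in their groups, 12795 against 5994 in HSC and 6416 against 3309 in KSL.

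Interferons are secreted alarm proteins. Type I interferons bind IFNAR1 and IFNAR2 and act through the kinases JAK1 and TYK2, which leads a complex of STAT proteins with IRF9, called ISGF3, to a DNA element known as the ISRE. Type II interferon (interferon gamma) binds IFNGR1 and IFNGR2 and acts through JAK1 and JAK2 on a different element, the GAS. The genes switched on sense viral RNA, block translation or virus entry, and feed back on the pathway. Stem cells are known to hold part of this programme on without infection, and interferons are known to drive quiescent stem cells into division.

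The letters of the ISRE occur shortly before the start site in some of these genes. RefSeq promoter sequence (assembly GRCm38.p6) was found for 33 of the 43 listed genes, and the 250 bases before the start site were searched on both strands for the ISRE core GAAANNGAAA, whose reverse is TTTCNNTTTC. It occurred in 13 of 33 genes (39.4%) against 936 of 27025 genes with a promoter (3.46%), and in 2.98% of all windows of that length. The GAS core TTCNNNGAA, which is its own reverse, occurred in 6 of 33 genes (18.2%) against 2197 of 27025 (8.13%); the ISRE and GAS letters were counted separately and may overlap. A match is a description of letters, not of binding. The matches below belong to genes whose values are described further on. They are given 5′ to 3′ on the gene's own strand, with the matching letters in capitals, and the capitals that open the Ifit1 line are the end of a second match lying further upstream.
Oas3 (chr5:120777710-120777749, minus strand): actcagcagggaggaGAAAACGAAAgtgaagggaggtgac
Ifit1 (chr19:34640789-34640828, plus strand): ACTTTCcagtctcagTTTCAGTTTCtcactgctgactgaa
Rsad2 (chr12:26456548-26456587, minus strand): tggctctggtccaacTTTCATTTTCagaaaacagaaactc
Gbp2 (chr3:142620589-142620628, plus strand): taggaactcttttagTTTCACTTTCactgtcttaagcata
Gbp3 (chr3:142559990-142560029, plus strand): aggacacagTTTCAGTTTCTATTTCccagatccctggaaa
Irgm1 (chr11:48871421-48871459, minus strand): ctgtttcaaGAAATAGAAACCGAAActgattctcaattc
Igtp (chr11:58199507-58199546, plus strand): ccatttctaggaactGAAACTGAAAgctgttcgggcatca
Bst2 (chr8:71537572-71537611, minus strand): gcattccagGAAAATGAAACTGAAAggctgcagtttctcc
The first base of the match nearest the gene lay 75 bases upstream of the start site in Oas3, 85 in Ifit1, 120 in Rsad2, 59 in Gbp2, 39 in Gbp3, 24 in Irgm1, 34 in Igtp and 124 in Bst2. Gbp3, Irgm1 and Bst2 each hold 2 overlapping matches.

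Oasl2 and Ifitm1, the genes with the smallest p-values in the comparison of KSL of leukemic and normal mice, hold no match in the whole 250 bases. Their upstream sequences are shown in full for that reason, in lower case because no letters matched.
Oasl2 (chr5:114896684-114896933, plus strand): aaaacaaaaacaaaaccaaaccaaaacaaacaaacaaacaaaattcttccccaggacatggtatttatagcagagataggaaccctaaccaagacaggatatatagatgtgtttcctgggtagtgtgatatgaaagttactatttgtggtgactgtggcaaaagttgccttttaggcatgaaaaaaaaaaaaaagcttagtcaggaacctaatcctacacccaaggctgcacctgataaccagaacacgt
Ifitm1 (chr7:140967826-140968075, plus strand): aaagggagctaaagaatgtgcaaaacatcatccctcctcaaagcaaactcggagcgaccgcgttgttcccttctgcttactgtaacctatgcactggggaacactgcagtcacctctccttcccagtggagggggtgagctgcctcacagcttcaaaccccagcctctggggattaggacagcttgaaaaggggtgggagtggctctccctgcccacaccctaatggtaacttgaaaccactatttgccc
The absence of a match says only that these letters are not in this window. Among the measured genes, the 12 with the ISRE letters, the 19 without and the 10 with no promoter window had median KSL differences (leukemic minus normal, log2) of -0.17, -0.23 and -0.40, so the genes with the letters did not have the most negative median.

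Across the whole set, KSL of leukemic mice tended to be the lowest group and HSC of normal mice the highest. The lowest group mean lay in KSL of leukemic mice for 28 of 41 genes, and the highest in HSC of normal mice for 23. These counts were not made over all genes and have no background share. Both KSL leukemic arrays read below all other 6 arrays for 17 of 41 genes (41.5%), against 9.99% of all genes, and above them for 2 (4.9%), Gbp3 and Bst2, against 7.71%. The 17 were Irf1, Irf7, Ifit1, Usp18, Herc6, Oasl2, Oas2, Oas3, Ddx58, Igtp, Rsad2, Isg20, Rtp4, Parp12, Parp14, Ifi27 and Xaf1. Margins were uneven. The higher KSL leukemic array and the lowest other array were at 7.48 and 7.50 for Parp14, and at 6.40 and 7.54 for Oasl2. For Bst2 the lower KSL leukemic array was at 9.28 and the highest other array at 9.26. Without the male arrays the count was 22 (53.7%, against 14.8% of all genes), and with any single array left out it lay between 17 and 21, against 11.1% to 17.0% of all genes. These arrangements of arrays were picked out after the values were seen and have no test of their own. In sorted bulk samples, fewer cells of an expressing type and less RNA per cell cannot be told apart.

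**Figure D1:**
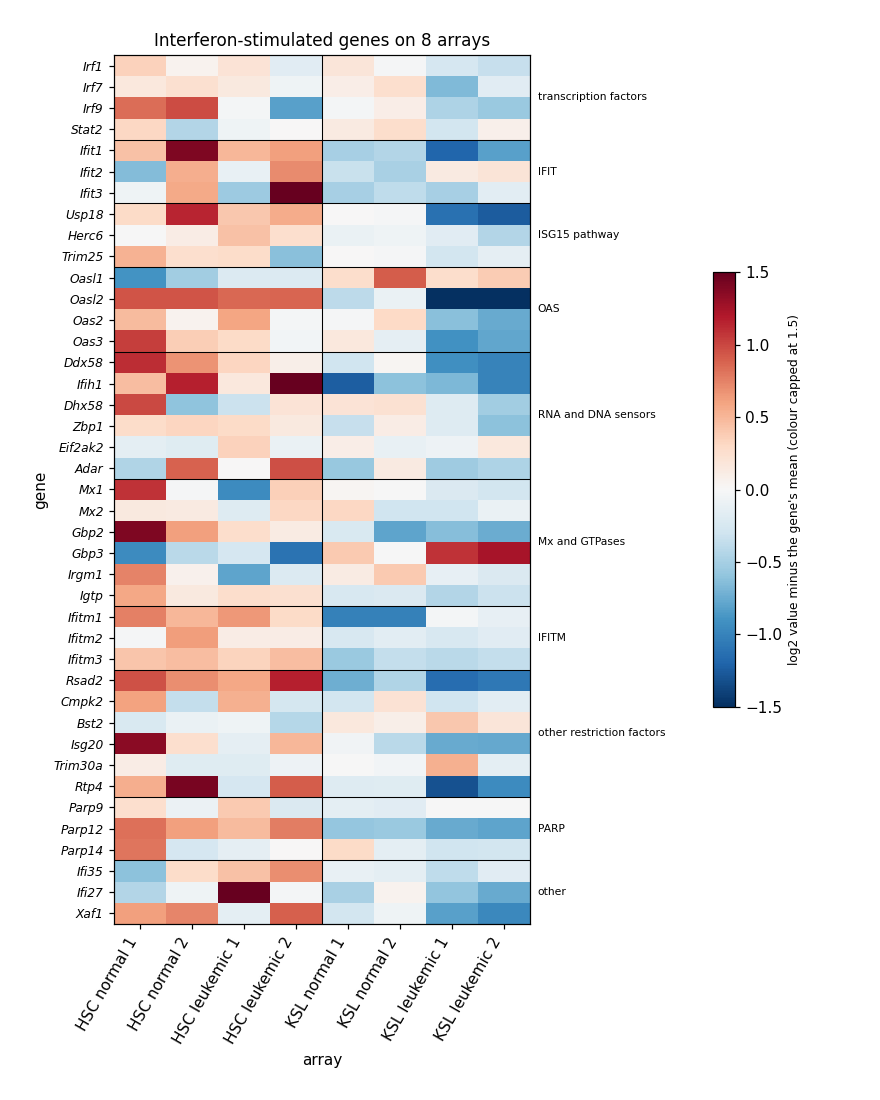
Log2 signal of the 41 measured interferon-stimulated genes on each of the 8 arrays, drawn as the difference from each gene's mean over all arrays (colour scale in log2 units, capped at 1.5), with genes grouped by role. The KSL leukemic columns are the lowest of the 8 for 17 of the 41 genes, whereas Gbp3 and Bst2 are highest there.

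The comparison of KSL cells asked how progenitors exposed to leukemia differed from those of control chimeras. Most interferon-stimulated genes read lower in the leukemic mice, with the largest negative differences in Oasl2, Usp18, Rtp4 and Oas3, while Ifitm1 and Gbp3 read higher. The median log2 difference over the 41 genes was -0.26 against 0 over all genes, with 31 below 0 and 10 above. No member passed limma at an adjusted p under 0.05, where 0.044% of all genes (8 genes) did. At an unadjusted p under 0.05, 6 members were lower (14.6%, against 4.45% of all genes) and 2 were higher (4.88%, against 3.5%). Errors after a difference are standard errors of the limma fit with n = 2 arrays a group, and adjusted p-values are over all genes.

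Of the transcription factors of the pathway, Irf7, the factor that amplifies type I interferon production, read 6.51 and 6.67 in KSL of normal mice and 5.75 and 6.24 in KSL of leukemic mice. The groups did not overlap, with a difference of -0.59 ± 0.19 (adjusted p = 0.536). Irf9, the DNA-binding part of ISGF3, read 7.41 and 7.54 against 6.98 and 6.89, a difference of -0.54 ± 0.27 (adjusted p = 0.78). On their brightest probe sets all 4 factors, with Irf1 at -0.38 and Stat2 at -0.30, lay below 0. A dimmer probe set of Stat2 gave 0.13.

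Oligoadenylate synthetases make the signal that activates RNase L on viral RNA, and the OAS-like proteins act on the antiviral response by other routes. Oasl2, an OAS-like protein with ubiquitin-like domains, read 7.54 and 7.83 in KSL of normal mice and 6.40 and 6.34 in KSL of leukemic mice. Its groups lay well apart, at -1.31 ± 0.10, the smallest p of any member in this comparison (adjusted p = 0.0993). Without KSL normal replicate 1 the difference was -1.46 and passed (adjusted p = 0.0473), and with array weights Oasl2 and Ifitm1 passed (adjusted p = 0.0376 and 0.041). Oas3 read 6.24 and 5.94 against 5.17 and 5.30, a difference of -0.85 ± 0.26 (adjusted p = 0.535). Oas2 read 6.54 and 6.85 against 5.92 and 5.8, a difference of -0.83 ± 0.27 (adjusted p = 0.554). In neither did the groups overlap. Oasl1, a translational repressor of Irf7, differed by -0.26, with overlapping arrays.

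Usp18 removes ISG15 from proteins and shuts down signalling at IFNAR2. It read 5.30 and 5.28 in KSL of normal mice and 4.18 and 4.05 in KSL of leukemic mice, the latter being the 2 lowest of its 8 values. The difference was -1.18 ± 0.29 (adjusted p = 0.42). Herc6, the mouse ligase for ISG15, and Trim25, which ubiquitinates RIG-I, differed by -0.22 and -0.19.

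Ddx58, which encodes the RNA sensor RIG-I, read 7.29 and 7.62 in KSL of normal mice and 6.67 and 6.58 in KSL of leukemic mice, without overlap. Its difference was -0.83 ± 0.20 (adjusted p = 0.401), and 2 dimmer probe sets of the gene differed by -0.31 and -0.06. Of the 6 members grouped as RNA and DNA sensors, which include the RNA-editing enzyme gene Adar, 4 lay below 0. The range ran from Ddx58 to Ifih1, the sensor MDA5, at 0.09.

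Ifitm1 and Gbp3 were the 2 members that read higher at an unadjusted p under 0.05 in limma. Ifitm1, a membrane protein that blocks virus entry and an established stem cell marker, read 11.07 and 11.07 in KSL of normal mice and 12.06 and 11.97 in KSL of leukemic mice. Both leukemic arrays were above both normal ones, by 0.94 ± 0.15 (adjusted p = 0.228). Its relatives Ifitm2 and Ifitm3 differed by -0.01 and 0.08. Gbp3, a guanylate-binding GTPase induced by interferon gamma, read 7.65 and 7.25 against 8.34 and 8.50, a difference of 0.97 ± 0.36 (adjusted p = 0.626). The other 5 Mx and GTPase members lay below 0, down to Irgm1 at -0.42.

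The remaining members showed smaller or noisier differences. Among other restriction factors, Rtp4, a chaperone induced by type I interferon, differed by -0.94 ± 0.50, and Rsad2, the antiviral enzyme viperin, by -0.51 ± 0.23. Trim30a was highest at 0.22, although a dimmer probe set gave -0.41. The IFIT genes, whose products bind viral RNA ends, split: Ifit1 was at -0.54 and Ifit2 at 0.58. Xaf1, a pro-apoptotic factor, was at -0.72 ± 0.35, and the PARP genes ran from -0.36 (Parp14) to 0.15 (Parp9). Isg20, an RNA exonuclease, was at -0.53 and Dhx58, the sensor LGP2, at -0.57, with standard errors of 0.43 and 0.56. Dimmer probe sets of Dhx58 gave 0.4 and 0.17. The sensor gene Zbp1, the RNA-editing enzyme gene Adar, the kinase gene Eif2ak2 (PKR) and Ifit3 lay between -0.28 and 0.17. So did the GTPase genes Mx1, Mx2, Gbp2 and Igtp, the nucleotide kinase gene Cmpk2 and the tetherin gene Bst2.

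**Figure D2:**
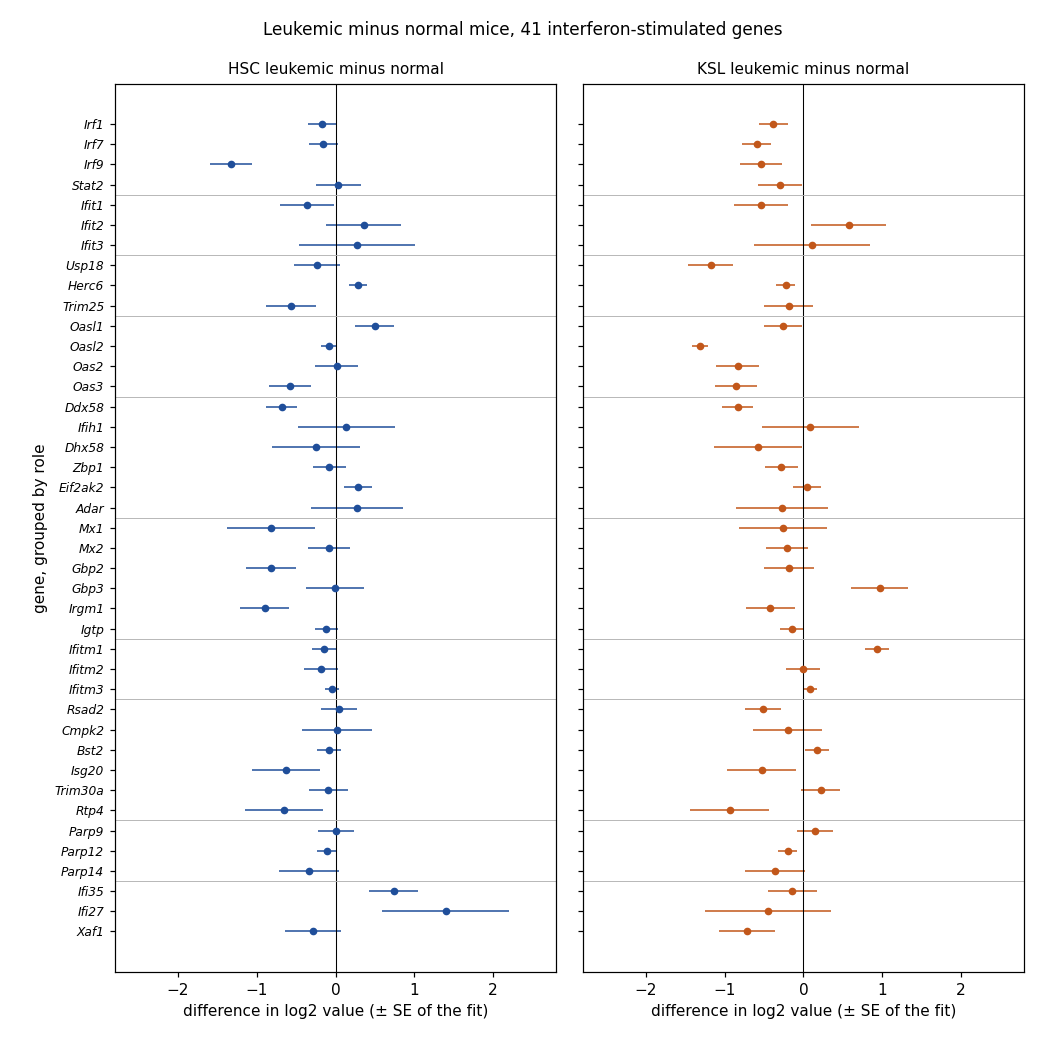
Log2 difference (leukemic minus normal, in log2 units) of each of the 41 genes in HSC and in KSL, with standard errors of the limma fit. Oasl2 and Usp18 lie farthest below 0 in KSL and Irf9 and Irgm1 in HSC; in neither comparison did a member pass after adjustment over all genes.

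Several measured features moved with the KSL difference. The summed linear signal of 14 long-term HSC markers was 3538 and 3402 on the KSL arrays of normal mice and 2136 and 2042 on those of leukemic mice; 11 of the 14 markers were lower and the median log2 difference was -0.65. Other lists shifted as well. A plasmacytoid dendritic cell list, a cell type known for strong interferon production, summed over 8 genes to 2073 and 2069 against 1222 and 1318, with 7 of 8 lower and none at the floor on all arrays. Its genes were uneven: Ly6d, Ccr9, Cox6a2 and Tcf4 differed by -1.60, -0.95, -0.88 and -0.63. Siglech, Pacsin1, Spib and Klk1 differed by -0.39, -0.16, -0.01 and 0.04. Ly6a, which encodes Sca-1 of the sort gate and is itself inducible by interferon, had no probe set of its own. Kit, the other positive marker of the gate, read 9.48 and 9.55 on the normal and 9.30 and 9.16 on the leukemic arrays. All 6 measured genes of a sort-marker list that includes Kit were lower, with a median of -0.52. They summed to 7224 and 6554 against 4914 and 4539. Flt3 differed by -1.46 ± 0.85 and Cd34 by -0.75 ± 0.22, both without overlap, and neither passed limma. Megakaryocyte genes summed to 2196 and 3762 against 1180 and 1485 (7 of 8 lower, median -0.70; Gp6 at the floor on all arrays) and erythroid genes to 6416 and 3309 against 1181 and 1635 (7 of 10 lower, median -0.61). Mast cell genes summed to 3860 and 5834 against 7860 and 7868, with 10 of 11 higher and a median of 0.68. Neutrophil and monocyte genes summed to 8678 and 7824 against 13493 and 9968 (14 of 16 higher), and granulocyte-monocyte progenitor genes to 35774 and 40581 against 50207 and 47275 (8 of 11 higher). The 10 T and NK cell genes summed to 3816 and 4466 against 4996 and 3963 (5 lower and 3 higher, median -0.21; Ncr1 and Gzma at the floor on all arrays). Among them Cd3e read 6.77 and 6.86 against 5.55 and 5.39, and Gzmb 7.57 and 6.43 against 8.24 and 8.11. The part of the composition of the gate in the difference was not tested. Of RNA quality measures, the 3′ minus 5′ signal of Gapdh was 0.89 and 0.74 against 0.73 and 0.75, that of Actb -0.48 on both against -0.53 on both, and that of Tfrc -1.28 and -1.58 against -1.65 and -1.68.

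The same question was asked in HSC. In stem cells of leukemic mice Irf9, Irgm1 and Ddx58 read lower, while Oasl2, Usp18 and Ifitm1 lay close to their level in normal mice. The median over the 41 genes was -0.09, with 27 below 0 and 14 above. No member passed limma (0.0989% of all genes, 18 genes, did). At an unadjusted p under 0.05, 3 members were lower (7.32%, against 7.23% of all genes) and 0 were higher (against 6.54%), so the share of lower members was near the background.

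Irf9 read 8.28 and 8.42 in HSC of normal mice and 7.41 and 6.63 in HSC of leukemic mice. The groups did not overlap and differed by -1.33 ± 0.27 (adjusted p = 0.179); without HSC leukemic replicate 1 the difference was -1.72 and passed (adjusted p = 0.0274), in a fit where 257 genes passed in place of 18. Irgm1, an immunity-related GTPase of autophagy known to restrain interferon signalling in stem cells, read 7.34 and 6.66 against 5.8 and 6.39. Its difference was -0.90 ± 0.31 (adjusted p = 0.321), with a gap of less than the spread inside either group. Ddx58 read 8.69 and 8.26 against 7.91 and 7.67, a difference of -0.68 ± 0.20 (adjusted p = 0.266). Its 2 dimmer probe sets gave -0.27 and 0.45, and the mean of its probe sets -0.17 (adjusted p = 0.764). On the brightest probe set it was below an unadjusted p of 0.05 in both cell types, with the same sign.

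All 6 Mx and GTPase members lay below 0 in HSC, with a median of -0.47. Of these, Gbp3 (-0.01 ± 0.36), Mx2 (-0.09 ± 0.27) and Igtp (-0.12 ± 0.15) lay within their standard error of 0. Gbp2, whose protein attacks pathogen vacuoles, read 8.77 and 7.99 against 7.63 and 7.49 (-0.82 ± 0.32). The largest positive value was that of Ifi27, at 1.40 ± 0.80, and it came from a single array: 11.80 in HSC leukemic replicate 1 against 8.73 to 9.53 on the other 7. Oasl2 read 8.88 and 8.88 against 8.79 and 8.80 (-0.08 ± 0.10). The summed linear signal of the granulocyte-monocyte progenitor list was 2192 and 2570 in HSC of normal mice and 5478 and 7690 in those of leukemic mice, with all 11 genes above 0 and a median log2 difference of 2.07. The neutrophil and monocyte list was uneven, at 13344 and 2720 against 23510 and 17786, and the Gapdh 3′ minus 5′ signal was 0.78 and 0.83 against 1.19 and 1.03. The same measure of Tfrc was -2.04 and -1.74 against -0.36 and -0.75, without overlap, and that of Actb -0.37 and -0.38 against -0.42 and -0.50. Long-term HSC markers had a median of -0.45, with 10 of 14 lower, erythroid genes one of -0.28, with 9 of 10 lower, and megakaryocyte genes one of 0.43, with 6 of 8 higher. Their part in the HSC values was not tested.

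Whether the leukemic difference was unequal in the cell types was tested as an interaction, in which the KSL value is subtracted from that of HSC. No member passed, where 0.0055% of all genes (1 gene) did. At an unadjusted p under 0.05, 2 members had a higher HSC difference (4.88%, against 4.81% of all genes), Oasl2 and Herc6, and 1 a lower one (2.44%, against 4.28%), Ifitm1. For Oasl2 the interaction was 1.23 ± 0.14 (adjusted p = 0.176), since it differed by -1.31 in KSL and -0.08 in HSC. For Ifitm1 it was -1.09 ± 0.22 (adjusted p = 0.318), with 0.94 in KSL and -0.15 in HSC. The HSC and KSL differences share no array. Of the members, 22 lay below 0 in both and 5 above 0 in both, so that 65.9% had the same sign, compared with 49.3% of all genes. The share of all genes is lowered by 1290 genes at the floor on all arrays, whose differences have no sign.

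**Figure D3:**
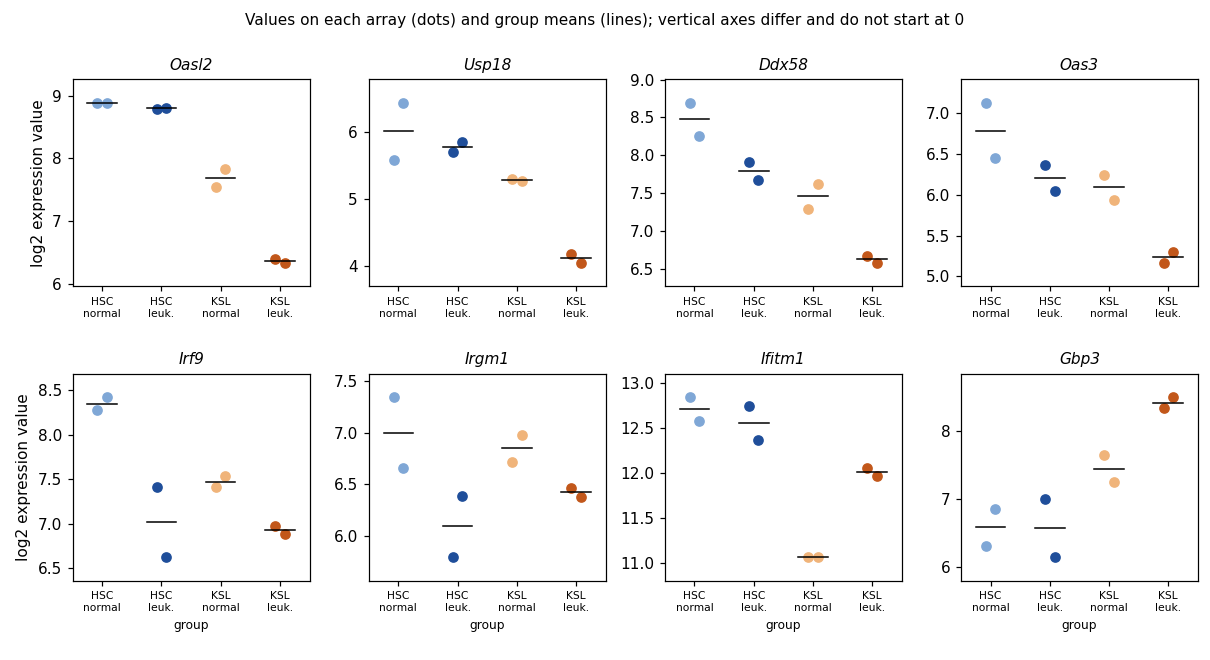
Log2 signal on each array (points, 2 per group) with group means (bars) for Oasl2, Usp18, Ddx58, Oas3, Irf9, Irgm1, Ifitm1 and Gbp3. Oasl2 is level across the 4 HSC arrays (8.79 to 8.88) and at 7.54 and 7.83 (normal) and 6.40 and 6.34 (leukemic) in KSL, while Ifitm1 is at 11.07 on both KSL normal arrays and at 12.06 and 11.97 on the KSL leukemic ones.

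Members passed the test between the cell types. In normal mice, stem cells had more Ifitm1, Ifitm3, Oasl2 and Parp12 transcript than the wider KSL population, and these 4 members passed limma over all genes (9.76% of members, against 1.8% of all genes). The median log2 difference, HSC minus KSL, was 0.42 over the members, with 32 above 0 and 9 below. At an unadjusted p under 0.05, 12 members were higher in HSC (29.3%, against 8.86% of all genes) and 1, Oasl1, was lower (2.44%, against 7.36%).

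Ifitm1 read 12.84 and 12.58 in HSC of normal mice and 11.07 on both KSL arrays, and was higher in HSC by 1.63 ± 0.15 (adjusted p = 0.0252). Ifitm3, which blocks virus entry in endosomes, read 12.95 and 13 against 11.97 and 12.17, higher by 0.90 ± 0.09 (adjusted p = 0.0258). Oasl2 was higher by 1.2 ± 0.10 (adjusted p = 0.023), and Parp12, an ADP-ribosyltransferase that restricts viral translation, by 1.29 ± 0.12 (adjusted p = 0.0258), at 8.68 and 8.47 against 7.27 and 7.29. None of these groups overlapped.

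Further members were separated without passing. The RNA sensor gene Ifih1 read 8.38 and 9.09 in HSC against 6.68 and 7.31 in KSL (1.74 ± 0.61, adjusted p = 0.278). Rsad2 read 8.84 and 8.59 against 7.15 and 7.44 (1.42 ± 0.23, adjusted p = 0.071). Gbp2 differed by 1.52 ± 0.32 (adjusted p = 0.116), from 8.77 and 7.99 to 7.14 and 6.58, and Ifit1 by 1.38 ± 0.34 (adjusted p = 0.155), from 6.24 and 7.20 to 5.31 and 5.37. Oasl1 went the other way, at 4.15 and 4.52 in HSC and 5.30 and 5.95 in KSL (-1.29 ± 0.25, adjusted p = 0.0989).

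The same comparison in leukemic mice, where no array had the male pattern, also put most members higher in stem cells. Oasl2, Rsad2, Usp18, Parp12, Ddx58 and Ifitm3 passed, all higher in HSC (6 members, 14.6%, against 5.86% of all genes). The median difference was 0.62, against 0.01 over all genes, with 35 above 0 and 6 below. Unadjusted, 18 members were higher (43.9%, against 12.7%) and 2, Bst2 and Gbp3, lower (4.88%, against 10.3%).

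Oasl2 was higher in HSC by 2.43 ± 0.10 (adjusted p = 0.0053), at 8.79 and 8.80 against 6.40 and 6.34. Rsad2 was higher by 1.98 ± 0.23 (adjusted p = 0.0231), at 8.47 and 9.05 against 6.75 and 6.81, although its 2 dimmer probe sets gave 0.59 and 0.09. Usp18 read 5.70 and 5.85 against 4.18 and 4.05, higher by 1.67 ± 0.29 (adjusted p = 0.0493). Parp12 was higher by 1.38 ± 0.12 (adjusted p = 0.0142), at 8.32 and 8.62 against 7.10 and 7.06.

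Ddx58 was higher by 1.17 ± 0.20 (adjusted p = 0.0465), at 7.91 and 7.67 against 6.67 and 6.58. Ifitm3 was higher by 0.78 ± 0.09 (adjusted p = 0.0217), at 12.87 and 12.99 against 12.13 and 12.18. Ifitm1, past the threshold in normal mice, differed by 0.55 ± 0.15 here (adjusted p = 0.128); the interaction given above is the test of that change. Ifih1 differed by 1.79 ± 0.61 (adjusted p = 0.183) and Ifit1 by 1.56 ± 0.34 (adjusted p = 0.079). Gbp3 read 7.01 and 6.15 in HSC against 8.34 and 8.50, a difference of -1.84 ± 0.36 (adjusted p = 0.0647).

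**Figure D4:**
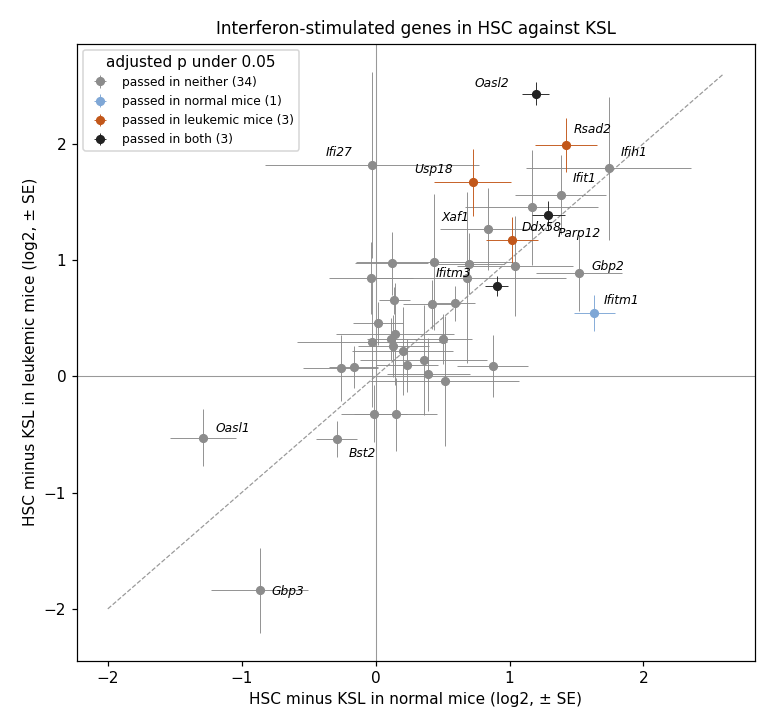
Log2 difference HSC minus KSL (log2 units) of the 41 genes in normal mice (horizontal axis) and in leukemic mice (vertical axis), each point a gene with standard errors of the fit, and with the line of equal difference. Of the genes, 3 passed in both (Oasl2, Parp12 and Ifitm3), 1 in normal mice only (Ifitm1), 3 in leukemic mice only (Rsad2, Usp18 and Ddx58) and 34 in neither.

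The normal and leukemic comparisons of HSC with KSL share no array, and 30 members lay above 0 in both and 4 below 0 in both, 82.9% of members against 60.9% of all genes. The latter share is again lowered by the 1290 genes at the floor on all arrays. All 4 HSC arrays read above all 4 KSL arrays for 14 members (34.1%, against 9.4% of all genes), namely Ifit1, Usp18, Herc6, Oasl2, Ddx58, Ifih1, Zbp1, Gbp2, Igtp, Ifitm1, Ifitm2, Ifitm3, Rsad2 and Parp12. They read below for Oasl1, Gbp3 and Bst2 (7.3%, against 7.44%). The KSL leukemic arrays enter both this comparison and that of KSL leukemic with KSL normal. Among the 14 members, Herc6 is listed on its brightest probe set. Its dimmer ones gave HSC minus KSL differences of 0.51, 0.3 and 0.49 in normal mice and -1.07, 0.72 and -0.05 in leukemic mice. The calls depend on the few arrays. No member passed in either comparison without KSL leukemic replicate 1 or 2, which contribute to the spread of every comparison, and Oasl2 was then at 2.46 or 2.40 in leukemic mice (adjusted p = 0.0643 or 0.0574). In those fits the count of all genes passing fell from 328 to 20 in normal mice, and from 1067 to 0 or 9 in leukemic mice. In normal mice, 1 member passed without HSC normal replicate 2 (Igtp, with 292 of all genes passing), 3 without HSC normal replicate 1 (Ifit1, Ifitm2 and Usp18, with 460), and 1 without KSL normal replicate 1 or 2 (Oasl2, with 48 or 42). In leukemic mice 3 passed without KSL normal replicate 1 or 2 (402 of all genes), and 9 without HSC normal replicate 1 or 2 (1105 of all genes). Without the male arrays, or with only the groups compared in the fit, 0 members passed in normal mice and 1, Oasl2, in leukemic mice. Without the male arrays 4 and 94 of all genes passed, and with only the groups compared 0 and 94.

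The cell types also differed in marker lists. The 14 long-term HSC markers summed to 9421 to 12660 on the HSC arrays and 2042 to 3538 on the KSL arrays, and 11 granulocyte-monocyte progenitor genes to 2192 to 7690 against 35774 to 50207. Ifitm1 and Ifitm3 are themselves known to be high in stem cells. The 11 macrophage genes measured summed to less on the HSC arrays, at 416 to 717 against 770 to 1303. Larger shifts occurred in other lists. Mast cell genes summed to 440 to 776 on the HSC arrays against 3860 to 7868 on the KSL arrays, and T and NK cell genes to 742 to 1163 against 3816 to 4996. Megakaryocyte genes went the other way, at 5098 to 10887 against 1180 to 3762. The part of composition in the difference was not tested.

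The rest of the pathway was read from lists of ligands, receptors, kinases and regulators. Of 20 listed interferon genes 9 were measured. Ifna2, Ifna4 and Ifna11 were at the floor on all arrays and Ifnb1 read between 3.65 and 4.37. Ifng, the type II interferon gene, was at the floor of 3.32 on both HSC arrays of normal mice and at 3.35 and 3.71 on those of leukemic mice. On the KSL arrays it read 5.60 and 6.0 in normal and 4.42 and 4.94 in leukemic mice. In normal mice it was lower in HSC than in KSL, with a log2 difference of -2.48 that is a bound because of the floor (adjusted p = 0.0278). Its KSL difference, leukemic minus normal, was -1.12 ± 0.24 (adjusted p = 0.355).

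Of 7 listed receptor chains 6 were measured, and 0 passed in either leukemic comparison, with 0 at an unadjusted p under 0.05. Ifnar1 read between 7.69 and 8.37 on all arrays, and Ifnar2 between 9.86 and 10.63 apart from 11.39 in HSC leukemic replicate 1. Ifngr1 read 8.23 to 9.35 on the HSC arrays, and 9.76 and 10.32 (normal) and 11.08 and 10.76 (leukemic) on the KSL arrays, all HSC arrays lying below all KSL arrays. Ifngr2 also lay lower on the HSC arrays, at 7.36 to 8.11 against 8.54 to 8.96. Il10rb read 6.70 to 7.31 in HSC and 7.47 to 7.73 in KSL. Ifnlr1, of the type III receptor, was at 6.22 in HSC normal replicate 1 and at 3.43 to 3.68 elsewhere.

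The kinases and STAT3 also gave 0 passing genes of 4 in the leukemic comparisons. Jak1 differed by -0.31 in KSL and 0.12 in HSC, Jak2 by -0.41 and -0.38, Tyk2 by 0.12 and -0.32 and Stat3 by 0.07 and 0.28. Among 7 other IRF genes, Irf2, a repressor at ISRE elements that protects stem cells from type I interferon, read 8.94 and 9.01 in KSL of normal mice and 7.50 and 7.91 in KSL of leukemic mice, a difference of -1.27 ± 0.22 (adjusted p = 0.246). In HSC it differed by -0.59 ± 0.22. Irf8, the monocyte lineage factor, was lower in HSC than in KSL in normal mice by a log2 difference of -4.46 ± 0.24 (adjusted p = 0.012) and in leukemic mice by -1.99 ± 0.24 (adjusted p = 0.0242). Its leukemic minus normal differences had opposite signs, at 1.58 ± 0.24 in HSC (limma, adjusted p = 0.134) and -0.89 ± 0.24 in KSL (adjusted p = 0.475). The interaction was 2.47 ± 0.33 (adjusted p = 0.211).

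Of the 9 inhibitors of the pathway, Socs3, which blocks JAK kinases at cytokine receptors, read 7.11 and 6.87 (normal) and 8.49 and 8.88 (leukemic) in HSC, and 6.27 and 6.17 (normal) and 7.32 and 7.35 (leukemic) in KSL. Both leukemic groups lay above their normal group, by 1.70 ± 0.16 in HSC (adjusted p = 0.0819) and 1.12 ± 0.16 in KSL (adjusted p = 0.215). Socs1, the main inhibitor of interferon receptors in the family, differed by -0.24 and -0.19.

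A further list of 70 interferon-inducible genes, 53 of them measured, was set beside the members. In KSL 33 of these lay below 0 and 19 above, with a median difference of -0.10, and at an unadjusted p under 0.05, 10 of 53 were lower and 2 higher, against 4.45% and 3.5% of all genes. In HSC 29 lay below 0 and 22 above, with a median of -0.02, and 7 were lower and 6 higher at that level, against 7.23% and 6.54% of all genes. Limma passed 0 in either. Between HSC and KSL of normal mice the median was 0.33, with Lgals3bp, a secreted glycoprotein, the 1 gene of 53 that passed (1.56, adjusted p = 0.0256, higher in HSC), against 1.8% of all genes. In leukemic mice the median was 0.60, with 9 genes of 53 passing higher in HSC and 1 lower, against 5.86% of all genes in either direction. Iigp1, an immunity-related GTPase, was higher by 3.09 ± 0.45 (adjusted p = 0.035), Lgals3bp by 1.99 ± 0.15 (adjusted p = 0.0113) and Mov10, an RNA helicase, by 1.84 ± 0.24 (adjusted p = 0.0281). Trim56, Epsti1, Trim34a, Oas1b, Lgals9 and Shisa5 were higher by 1.44 to 0.81. Slfn4 was lower, at the floor on both HSC arrays, with a log2 difference of -2.67 that is a bound (adjusted p = 0.0217).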

How the data were processed

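The authors deposited 1 table of log2 values for 45101 probe sets, made with RMA per the submitters' processing notes, which give no version; any other step is not given in the sources used here. Its floor as deposited is 10 on the linear scale (14.94% to 15.76% of probe sets on each array), and 0 other sample columns were left unused. The series' design text names Nugen amplification and the labels' protocol standard Affymetrix cRNA, so the amplification is not settled. The labels' free-text descriptions, which name another kind of material, were not used, and the KSL arrays of leukemic mice were assigned by the disease state label because their titles hold both wordings.

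Probe sets were named by the platform annotation: 34945 carried 1 symbol, 932 carried more, 9160 carried none, and 64 controls were left out; 34741 were found in RefSeq (GRCm38.p6) by gene ID. The brightest probe set stood for each of 18193 genes, 9010 of which had more than 1. No dim genes were dropped. Limma 3.58.1 in R 4.3.3, with lmFit, eBayes and a mean for each of the 4 groups fitted over all 8 arrays, gave two-sided p-values, adjusted by Benjamini-Hochberg over all genes, with a threshold of 0.05, for 5 comparisons. Precision is limited by the number of arrays. Tables were made in pandas 2.3.3 and numpy 2.4.6 under Python 3.11.15, figures in matplotlib 3.10.9, and the fit was tested on simulated data.

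The members, lists and tests were chosen with earlier results of these data known. Members were given in full where they passed, or had an unadjusted p under 0.05, no overlap and a fold change of at least 1.5, up to 8 in each direction by size; the others are given by role.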

Additional observations from a re-analysis of the deposited data

Results flagged for a closer look

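In 3 members every HSC array of leukemic mice lay to one side of the HSC arrays of normal mice, and the KSL arrays lay to the other side, without overlap. Opposite arrangements of this kind occurred in 7.32% of members and in 6.08% of all genes, a share near the background. Herc6, the ligase for ISG15, differed by 0.29 in HSC and -0.22 in KSL, and the difference between these was 0.512 ± 0.165 (limma, adjusted p = 0.47); its 3 dimmer probe sets gave -1.74, -0.03 and -0.86 in HSC and -0.16, -0.45 and -0.32 in KSL. Ifi27, a mitochondrial protein gene induced by type I interferon, differed by 1.40 and -0.45, and the difference was 1.845 ± 1.133 (adjusted p = 0.725). It rests on HSC leukemic replicate 1, and a second probe set gave 0.13 and -0.21. Ifi35, a regulator of innate signalling, differed by 0.73 and -0.14, and the difference was 0.877 ± 0.44 (adjusted p = 0.649); its other probe sets gave 0.91 and -0.12 in HSC and 0.27 and 0.31 in KSL. None of the 3 differences between cell types passed the test.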

How the results depend on the processing

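Of 31 named results, 0 changed sign under the alternatives run for them, 19 in all, of which 8 leave out 1 array each. This count is not a test of the named results. Apart from the interactions, all had groups without overlap, so leaving out arrays could not change their sign. Oasl1 and Usp18 have no value once the lowest 40% of genes are dropped. With array weights, 2 members passed in KSL of leukemic against normal mice, Ifitm1 (adjusted p = 0.041) and Oasl2 (adjusted p = 0.0376). Averaging probe sets moved the members' median to -0.176 in the HSC comparison of leukemic with normal mice, to 0.377 for HSC against KSL of leukemic mice, and to -0.038, a change of sign, for the interaction. For HSC against KSL of normal mice, 0 members passed with the replicate block, 0 with only the groups compared fitted, 0 without the male arrays and 7 once genes with any array at the floor were dropped. For HSC against KSL of leukemic mice, 3 passed with the replicate block (Ifitm3, Oasl2 and Parp12), 1 with only the groups compared and 1 without the male arrays. With the block, 19 and 401 of all genes passed in these comparisons. Deviations of same-numbered arrays correlated between -0.035 and 0.087, so the numbers were not treated as pairs, although replicate 1 of both normal groups shared the male pattern and the higher erythroid signal. With 1 array left out, 0 to 1 members passed in HSC and 0 to 1 in KSL of leukemic against normal mice, 0 to 6 in HSC against KSL of normal mice and 0 to 9 in that of leukemic mice. The members' median then lay between -0.158 and -0.078 in HSC and between -0.307 and -0.205 in KSL of leukemic against normal mice, 0.054 and 0.199 for the interaction, 0.378 and 0.503 for HSC against KSL of normal mice, and 0.519 and 0.631 for that of leukemic mice. Over all alternatives it ran from -0.176 to -0.044 in HSC and from -0.307 to -0.191 in KSL. A fit of only the groups compared was not run for the interaction, which uses all groups. Those fits give a lone remaining array the spread of the other groups. With 2 arrays a group, small differences were not detectable.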

Other observations

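Among interferon-inducible genes outside the set, some read higher in KSL of leukemic mice while most read lower; the genes here were picked after their values were seen. Slfn4, a myeloid gene of the Schlafen family, read 3.72 and 3.95 in KSL of normal mice and 6.21 and 5.78 in KSL of leukemic mice, a difference of 2.16 ± 0.30 (limma, adjusted p = 0.215). On the HSC arrays it was at the floor of 3.32 except for 4.09 in normal replicate 2. Its relative Slfn2, which keeps T cells quiescent, read 6.44 and 6.64 against 7.49 and 7.31 (adjusted p = 0.399). Ifi27l2a went opposite ways without passing, at 5.69 and 6.72 (normal) and 7.81 and 7.0 (leukemic) in HSC and 8.34 and 8.87 (normal) and 6.6 and 6.89 (leukemic) in KSL, with an interaction of 3.06 (adjusted p = 0.346). Shisa5, a p53-induced gene of the endoplasmic reticulum, read 10.65 and 10.82 in KSL of normal mice and 9.70 and 9.81 in KSL of leukemic mice (-0.98 ± 0.11, adjusted p = 0.214). Iigp1, an immunity-related GTPase, read 8.08 to 8.92 on the HSC arrays and 5.28 to 6.44 on the KSL arrays.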
